A study of Mus musculus with 17 samples.

Results

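Bmi1, Hopx, Tert, Lrig1 and Krt19 are genes that have been used to mark reserve, or +4, stem cells of the mouse intestinal crypt. They were chosen by name: every array probe whose gene name in the scanner files equals one of the 5 symbols was taken, which gave 8 probes among 55681 non-control probes. The 5 genes were set beside the 27771 gene names that passed the filter on dim probes. Bmi1, Hopx and Lrig1 had 2 probes each, and Tert and Krt19 had 1 each.

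RNA levels were measured on 17 one-colour Agilent arrays. Each held total RNA from cells that the labels call intestinal stem cells, sorted by flow cytometry from LGR5-GFPki mice. These mice carry a green fluorescent protein knock-in at Lgr5, the gene of a crypt base receptor for R-spondins, and all 17 samples share that genotype. The 4 groups were LGR5hi cells after 12 Gy of gamma-irradiation (4 arrays), LGR5hi cells of mice given 0 Gy (4), LGR5lo cells after 12 Gy (4) and LGR5lo cells at 0 Gy (5). Cells were collected 3 h after exposure, and each group held male and female mice. The age of the mice, the sort gates and whether RNA of several mice was pooled were not given in the sources used here. Nothing in the labels says that the arrays of a group come from separate mice. The p-values thus set differences against the spread between these arrays, which need not be the spread between mice.

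The crypt holds cycling LGR5-positive columnar cells at its base, and lineage tracing in the mouse has described other cells, often near position 4 above the base, that divide rarely and can rebuild the crypt after damage. Hopx is an atypical homeodomain protein that does not bind DNA and acts through partners such as serum response factor and histone deacetylases. Bmi1 is a RING finger subunit of Polycomb repressive complex 1, Tert is the catalytic subunit of telomerase, Lrig1 is a membrane protein that restrains ERBB receptor signalling, and Krt19 is a type I keratin of simple epithelia. The genes thus share a use as markers, not a pathway, and RNA of several of them is also found in cycling crypt cells.

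The promoter windows of Hopx, Tert and Lrig1 are shown because these 3 genes carry differences described below. Each window runs from 250 bases before to 50 bases after a RefSeq transcription start on GRCm38.p6, 5′ to 3′ on the gene's strand. RefSeq windows were matched for 4 of the 5 genes. The Hopx windows lie at chr5:77115074-77115373 and chr5:77095218-77095517, both on the minus strand. The Tert window lies at chr13:73626661-73626960 on the plus strand, and the Lrig1 window at chr6:94700096-94700395 on the minus strand. Capitals mark any match, on either strand, to 6 motifs: the GC box (GGGCGG), the E-box (CACGTG), the TATA box (TATAAA), the AP-1 site (TGANTCA), the CArG box to which serum response factor binds, and the p53 half-site.
Hopx, distal start: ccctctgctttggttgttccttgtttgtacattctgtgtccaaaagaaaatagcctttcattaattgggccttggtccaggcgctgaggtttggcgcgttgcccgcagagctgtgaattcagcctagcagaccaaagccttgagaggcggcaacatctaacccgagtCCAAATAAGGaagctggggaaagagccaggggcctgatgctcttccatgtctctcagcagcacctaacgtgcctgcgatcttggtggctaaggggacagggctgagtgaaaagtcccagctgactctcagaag
Hopx, proximal start: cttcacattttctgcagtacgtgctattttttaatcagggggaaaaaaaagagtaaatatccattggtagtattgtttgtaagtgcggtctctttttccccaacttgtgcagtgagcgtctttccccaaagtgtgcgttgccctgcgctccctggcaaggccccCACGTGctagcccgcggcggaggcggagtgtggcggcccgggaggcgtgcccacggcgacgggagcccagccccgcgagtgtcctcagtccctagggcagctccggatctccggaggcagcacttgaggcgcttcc
Tert: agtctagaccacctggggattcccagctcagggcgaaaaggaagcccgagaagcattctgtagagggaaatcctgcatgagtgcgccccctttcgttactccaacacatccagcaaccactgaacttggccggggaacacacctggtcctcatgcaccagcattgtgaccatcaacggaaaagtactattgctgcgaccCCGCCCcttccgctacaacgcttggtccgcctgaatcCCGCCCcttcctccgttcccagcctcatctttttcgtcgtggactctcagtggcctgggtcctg
Lrig1: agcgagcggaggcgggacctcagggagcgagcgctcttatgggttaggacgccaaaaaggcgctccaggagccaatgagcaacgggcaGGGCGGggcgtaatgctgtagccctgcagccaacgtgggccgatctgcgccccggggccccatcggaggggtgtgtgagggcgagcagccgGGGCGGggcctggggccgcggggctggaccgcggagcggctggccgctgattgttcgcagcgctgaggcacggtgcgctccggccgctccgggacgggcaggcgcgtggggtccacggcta

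The distal Hopx window held 1 CArG box, first base at -83 from the start, a motif present in 1.63% of all 32851 windows of that length. The proximal Hopx window held 1 E-box at -86, and 7.15% of all windows hold one. Tert and Lrig1 each had 2 GC boxes, a motif found in 35.7% of windows, at -51 and -14 in Tert and at -162 and -71 in Lrig1. These are letter matches only, and no TATA box, AP-1 site or p53 half-site was matched in the printed windows; the same windows of all genes hold them in 13.6%, 7.81% and 8.36% of cases.

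Signal is given as log2 of the processed intensity minus the 75th percentile of the array, so that 0 is the level below which 75 of 100 probes lie; levels of different probes are not compared. Between 58.9% and 73.9% of probes were well above background on 15 arrays with complete flags, whereas LGR5lo 0 Gy replicate 2 had 95.6%, and stood apart. The slope fitted by the scanner software to its spiked control RNAs was 0.79, and the file of LGR5lo 0 Gy replicate 4 lists that slope as 0. The file of LGR5hi 0 Gy replicate 1 was readable for 15329 of 62976 spots, so its values were rebuilt from the deposited normalized table. That table is centred by probe, and the baseline of each probe was taken from the other arrays. All 8 probes of the 5 genes were well above background on each of the 16 arrays with flags, and none was saturated. Lgr5 checked the sort labels: it averaged 2.71 ± 0.33 in LGR5hi and -0.18 ± 0.47 in LGR5lo cells at 12 Gy (SD, n = 4 each), and 4.23 ± 0.31 in LGR5hi (n = 4) and 1.09 ± 0.51 in LGR5lo cells (n = 5) at 0 Gy. Cdkn1a, a p53-induced inhibitor of cyclin-dependent kinases, checked the dose labels, with a log2 difference, 12 Gy minus 0 Gy, of 4.91 ± 0.31 (SE) in LGR5hi and 2.90 ± 0.30 in LGR5lo cells. Epithelial markers were present in all groups: all 10 on the list, among them Epcam, Cdh1 and Vil1, were measured. In bulk RNA, fewer cells that express a gene and less of its RNA per cell cannot be told apart.

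Irradiation was accompanied by 3 changes among the 5 genes, and the same 3 genes passed the test in LGR5hi and in LGR5lo cells. Hopx fell, while Krt19 and Tert rose. Bmi1 and Lrig1 did not pass in either sort. In LGR5hi cells 2 of the 5 genes were called higher and 1 lower, beside 6.18% of all names called higher and 7.3% called lower. In LGR5lo cells 2 were called higher and 1 lower, beside 4.48% and 3.02% of all names. The call is an adjusted p under 0.05 in limma with Benjamini-Hochberg adjustment over all names. With each array centred on its median, the LGR5lo calls over all names split into 1052 higher and 223 lower, against 1243 and 838 with the 75th percentile. That centring also moved the median of all names in this comparison to 0.12, against -0.13, and at 0 Gy between the sorts to 0.16, against -0.08.

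**Figure D1:**
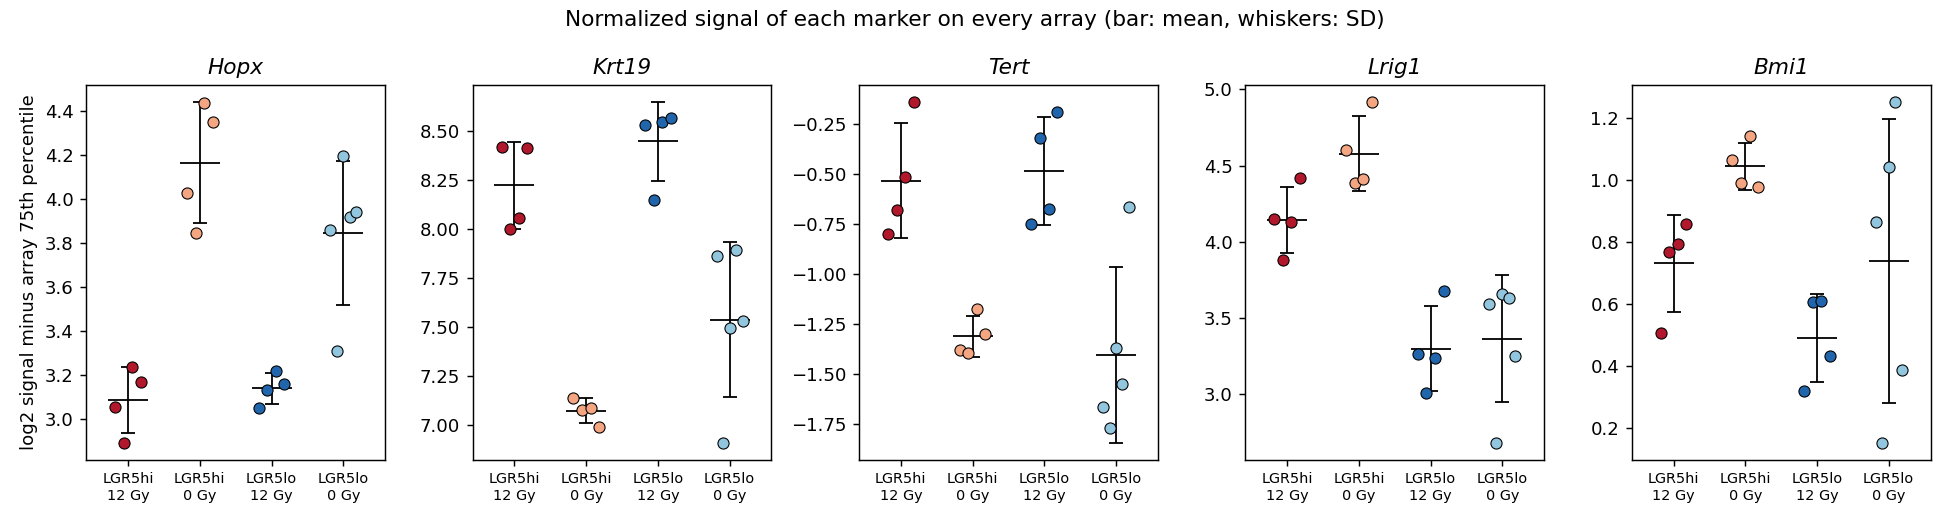
Normalized log2 signal (vertical axis, log2 units relative to the array's 75th percentile) of the tested probe of each gene on every array; each point is 1 array, the bar is the group mean and the whiskers are 1 SD. For Hopx, the 12 Gy arrays of both sorts lie between 2.89 and 3.23, below all 0 Gy arrays, whose lowest value is 3.31; for Krt19 the 12 Gy arrays lie at 8.004 or above and the 0 Gy arrays at 7.89 or below.

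Hopx was lower after 12 Gy in both sorts. At its tested probe, which lies on the minus strand at chr5:77516460-77516519 of mm9, LGR5hi cells had 3.05, 2.89, 3.23 and 3.17 after 12 Gy, against 4.03, 3.85, 4.44 and 4.35 at 0 Gy. LGR5lo cells had 3.05, 3.13, 3.22 and 3.16 after 12 Gy, against 3.86, 3.31, 4.20, 3.92 and 3.94 at 0 Gy. The doses did not overlap in either sort, and the lowest unirradiated value belonged to the LGR5lo array that stood apart. The difference was -1.08 ± 0.18 (SE) in LGR5hi cells, a 2.11-fold lower signal (limma, adjusted p = 0.00068). For LGR5lo cells the value was -0.71 ± 0.17, or 1.63-fold lower (limma, adjusted p = 0.020).

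Hopx averaged 3.09 ± 0.15 (SD) in LGR5hi cells at 12 Gy and 4.17 ± 0.28 at 0 Gy, and 3.14 ± 0.07 in LGR5lo cells at 12 Gy and 3.85 ± 0.33 at 0 Gy. From high to low the order was LGR5hi 0 Gy, LGR5lo 0 Gy, LGR5lo 12 Gy and LGR5hi 12 Gy. LGR5hi minus LGR5lo was -0.05 (95% interval -0.44 to 0.33) at 12 Gy and 0.32 (-0.05 to 0.69) at 0 Gy, and neither passed the test. The second Hopx probe, at chr5:77516624-77516683 on the minus strand of mm9, gave -1.09 ± 0.19 in LGR5hi cells (limma over 41444 probes, adjusted p = 0.0011). For LGR5lo cells the same probe gave -0.58 ± 0.18, which missed the threshold (adjusted p = 0.074). On that probe LGR5lo 0 Gy replicate 4 read 2.74, below the irradiated LGR5lo arrays (2.77 to 3.03), where the other 4 arrays of its group read 3.55 to 3.75. Over all 17 arrays the probes correlated at r = 0.81, a value across arrays that share the same RNA.

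The Hopx difference in LGR5hi cells was -0.97 on slide 1 alone (2 arrays a group, adjusted p = 0.20) and -1.19 on slide 2 alone (adjusted p = 0.018). In LGR5lo cells it was -0.50 and -0.87 on the same slides, and the call was lost without 12 Gy LGR5lo replicate 1 (-0.68, adjusted p = 0.064) or replicate 4 (-0.71, adjusted p = 0.053). Without the unirradiated LGR5lo array that stood apart it was -0.84 (adjusted p = 0.0014), and with median centring -0.46 (adjusted p = 0.36), which is -0.57 relative to the median of all names under either centring.

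Krt19 was higher after 12 Gy in both sorts. Its single probe lies at chr11:100002392-100002451 on the minus strand of mm9. In LGR5hi cells it read 8.42, 8.004, 8.06 and 8.41 after 12 Gy, against 7.14, 7.08, 7.09 and 6.99 at 0 Gy. In LGR5lo cells it read 8.53, 8.15, 8.55 and 8.57 after 12 Gy, against 7.86, 6.91, 7.50, 7.89 and 7.53 at 0 Gy. No 12 Gy array overlapped a 0 Gy array in either sort, and the unirradiated LGR5hi arrays were the lowest as a group, at 6.99 to 7.14.

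The difference was 1.15 ± 0.20 (SE) in LGR5hi cells, a 2.22-fold rise (limma, adjusted p = 0.00078). The rise in LGR5lo cells was 0.91 ± 0.19, or 1.88-fold (limma, adjusted p = 0.0065). Krt19 averaged 8.22 ± 0.22 (SD) in LGR5hi cells at 12 Gy and 7.07 ± 0.06 at 0 Gy, and 8.45 ± 0.20 in LGR5lo cells at 12 Gy and 7.54 ± 0.40 at 0 Gy. From high to low the order was LGR5lo 12 Gy, LGR5hi 12 Gy, LGR5lo 0 Gy and LGR5hi 0 Gy. LGR5hi minus LGR5lo was -0.22 (95% interval -0.64 to 0.19) at 12 Gy. At 0 Gy it was -0.46 (-0.86 to -0.07, adjusted p = 0.13), and without LGR5lo 0 Gy replicate 2 it was -0.62 and passed (adjusted p = 0.013). The irradiation differences on slides 1 and 2 alone were 1.10 and 1.20 in LGR5hi cells, and 0.95 and 0.86 in LGR5lo cells, where a fit to the irradiated and unirradiated LGR5lo arrays alone missed the threshold (adjusted p = 0.079).

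Tert, whose protein extends telomeres by reverse transcription, was higher after 12 Gy in both sorts. Its single probe lies at chr13:73786429-73786488 on the plus strand of mm9. LGR5hi cells read -0.80, -0.68, -0.51 and -0.14 after 12 Gy, against -1.38, -1.40, -1.17 and -1.30 at 0 Gy, with no overlap. LGR5lo cells read -0.75, -0.32, -0.68 and -0.19 after 12 Gy, against -1.67, -1.77, -1.37, -1.55 and -0.67 at 0 Gy. The value of -0.67 is the fifth unirradiated LGR5lo array, the one on a slide of its own, and it lies within the irradiated range.

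The difference was 0.78 ± 0.22 (SE), or 1.72-fold, in LGR5hi cells (limma, adjusted p = 0.029). The LGR5lo difference was 0.92 ± 0.21, or 1.89-fold (limma, adjusted p = 0.015). Tert averaged -0.53 ± 0.29 (SD) in LGR5hi cells at 12 Gy and -1.31 ± 0.10 at 0 Gy, and -0.48 ± 0.27 in LGR5lo cells at 12 Gy and -1.41 ± 0.44 at 0 Gy. The irradiated group means stood above the unirradiated ones in both sorts. LGR5hi minus LGR5lo was -0.05 (95% interval -0.53 to 0.43) at 12 Gy and 0.09 (-0.36 to 0.54) at 0 Gy. Within the 4 same-numbered pairs at 0 Gy it was 0.29, 0.38, 0.20 and 0.25, positive in 4 of 4 (mean 0.28 ± 0.08, SD), while at 12 Gy it was positive in 2 of 4. The fifth LGR5lo array has no partner, and with the array number as a block within dose the 0 Gy difference was 0.28 and did not pass (limma, adjusted p = 0.20).

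Leaving out any 1 of 5 arrays ended the Tert call in LGR5hi cells: 12 Gy replicate 3 (0.77, adjusted p = 0.067) or 4 (0.65, 0.10), and 0 Gy replicate 1 (0.76, 0.075), 2 (0.75, 0.075) or 4 (0.78, 0.060). In LGR5lo cells the call ended without 12 Gy replicate 4 (0.82, adjusted p = 0.061). On slides 1 and 2 alone the differences were 0.65 and 0.91 in LGR5hi cells and 1.18 and 1.03 in LGR5lo cells. With normexp background correction of the 16 complete arrays the differences were 0.62 in LGR5hi (adjusted p = 0.14) and 0.64 in LGR5lo cells (adjusted p = 0.076).

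Lrig1 separated the sorts, while its differences between doses did not pass the test. Its tested probe lies at chr6:94554811-94554870 on the minus strand of mm9. At 12 Gy it read 4.15, 3.88, 4.13 and 4.42 in LGR5hi cells, against 3.27, 3.01, 3.24 and 3.68 in LGR5lo cells. At 0 Gy it read 4.60, 4.38, 4.41 and 4.92 in LGR5hi cells, against 3.59, 2.68, 3.66, 3.63 and 3.25 in LGR5lo cells. Every LGR5hi array lay above every LGR5lo array at both doses.

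The difference between LGR5hi and LGR5lo was 0.84 ± 0.22 (SE) at 12 Gy, or 1.80-fold (limma, adjusted p = 0.032). At 0 Gy it was 1.21 ± 0.21, or 2.32-fold (limma, adjusted p = 0.0015). Lrig1 was thus the 1 gene of 5 called higher in LGR5hi cells at each dose, beside 2.21% of all names at 12 Gy and 4.62% at 0 Gy. None of the 5 was called lower in limma, beside 4.1% and 4.93% of names, and at an unadjusted p under 0.05 the count was 0 at 12 Gy and 1 (Krt19) at 0 Gy. With median centring the calls over all names at 12 Gy split into 262 higher and 799 lower, against 615 and 1138. The second Lrig1 probe, at chr6:94554523-94554582 on the minus strand, gave 0.87 ± 0.23 at 12 Gy and 1.20 ± 0.21 at 0 Gy, and both passed (limma over probes, adjusted p = 0.036 and 0.0023). The pair of probes correlated at r = 0.99 over 17 arrays.

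Within arrays of the same number and dose, LGR5hi minus LGR5lo for Lrig1 was 0.88, 0.87, 0.89 and 0.74 at 12 Gy, and 1.01, 1.70, 0.75 and 1.28 at 0 Gy. The value of 1.70 involves the LGR5lo array that stood apart, without which the 0 Gy difference was 1.05 (adjusted p = 0.0011). At 12 Gy the call ended when 1 of 6 of the 8 irradiated arrays was left out: LGR5hi replicate 1 (0.84, adjusted p = 0.073), 3 (0.85, 0.071) or 4 (0.75, 0.097), and LGR5lo replicate 1 (0.83, 0.089), 2 (0.75, 0.10) or 3 (0.82, 0.087). On slides 1 and 2 alone it was 0.88 and 0.81 at 12 Gy and 1.35 and 1.02 at 0 Gy. Irradiation gave Lrig1 differences of -0.43 (95% interval -0.91 to 0.04) in LGR5hi and -0.06 (-0.51 to 0.38) in LGR5lo cells, neither past the test. These intervals do not show that Lrig1 stayed level after irradiation. Lrig1 averaged 4.14 ± 0.22 (SD) in LGR5hi cells at 12 Gy and 4.58 ± 0.25 at 0 Gy, and 3.30 ± 0.28 in LGR5lo cells at 12 Gy and 3.36 ± 0.42 at 0 Gy. From high to low the order was thus LGR5hi 0 Gy, LGR5hi 12 Gy, LGR5lo 0 Gy and LGR5lo 12 Gy, and the gap lay between the sorts.

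**Figure D2:**
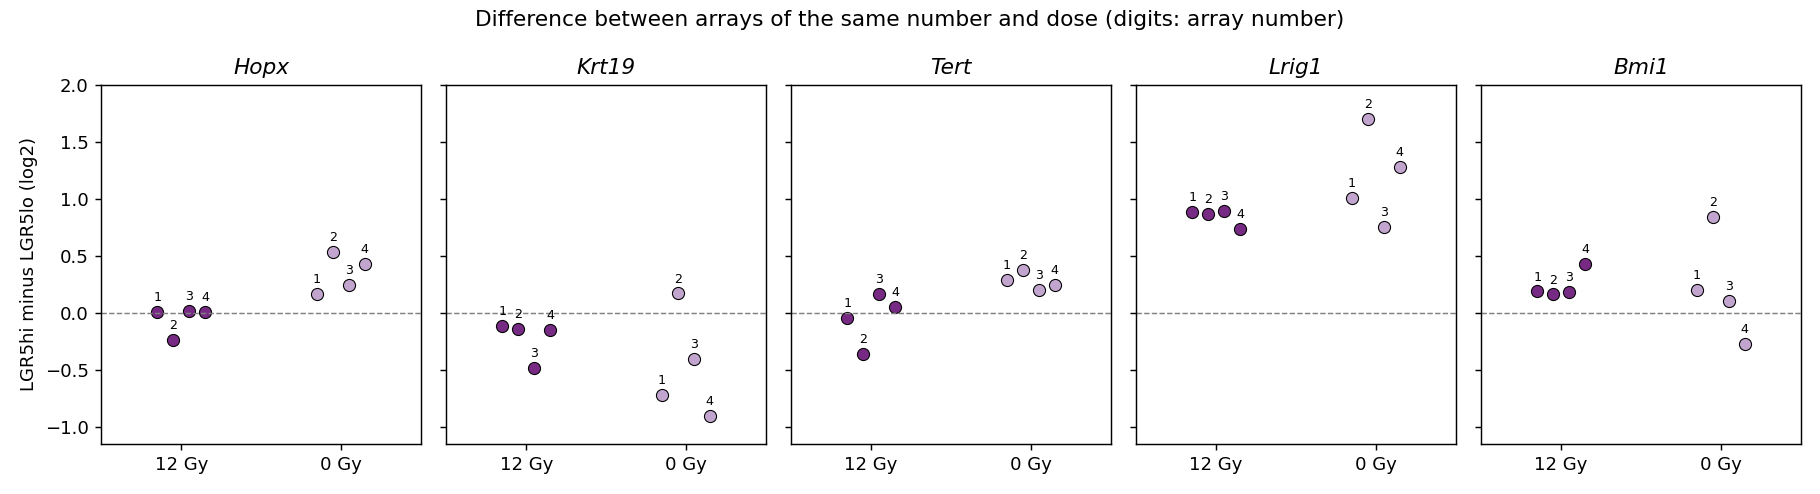
LGR5hi minus LGR5lo (vertical axis, log2 difference) for each pair of arrays with the same number and dose, for the 5 genes; digits give the array number. Lrig1 is above 0 in all 8 pairs, from 0.74 to 1.70, while Krt19 is below 0 in 7 of 8 pairs.

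Bmi1 passed none of the 5 tests. Its tested probe, at chr2:18607531-18607590 on the plus strand of mm9, read 0.50, 0.77, 0.79 and 0.86 after 12 Gy, against 1.06, 0.99, 1.14 and 0.98 at 0 Gy in LGR5hi cells. In LGR5lo cells it read 0.32, 0.60, 0.61 and 0.43 after 12 Gy, against 0.86, 0.15, 1.04, 1.25 and 0.39 at 0 Gy. The LGR5hi doses did not overlap, but the difference of -0.31 was small beside its interval (-0.74 to 0.12, limma adjusted p = 0.43). In LGR5lo cells it was -0.25 (-0.66 to 0.16), and this sign turned with median centring, to 0.00. LGR5hi minus LGR5lo was 0.24 (-0.19 to 0.67) at 12 Gy and 0.30 (-0.10 to 0.71) at 0 Gy.

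The second Bmi1 probe, at chr2:18607987-18608046, gave -0.35 ± 0.19 in LGR5hi and -0.28 ± 0.18 in LGR5lo cells for irradiation, with the same direction and no call. On this second probe the LGR5hi doses overlapped, at -0.56 to -0.095 after 12 Gy and -0.21 to 0.07 at 0 Gy. At the tested probe Bmi1 averaged 0.73 ± 0.16 (SD) in LGR5hi cells at 12 Gy and 1.04 ± 0.08 at 0 Gy, and 0.49 ± 0.14 in LGR5lo cells at 12 Gy and 0.74 ± 0.46 at 0 Gy. From high to low the order was LGR5hi 0 Gy, LGR5lo 0 Gy, LGR5hi 12 Gy and LGR5lo 12 Gy, and neighbours in that order overlapped. The irradiation intervals reach down to -0.74 in LGR5hi and -0.66 in LGR5lo cells, so a missed threshold does not show that Bmi1 stayed level.

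**Figure D3:**
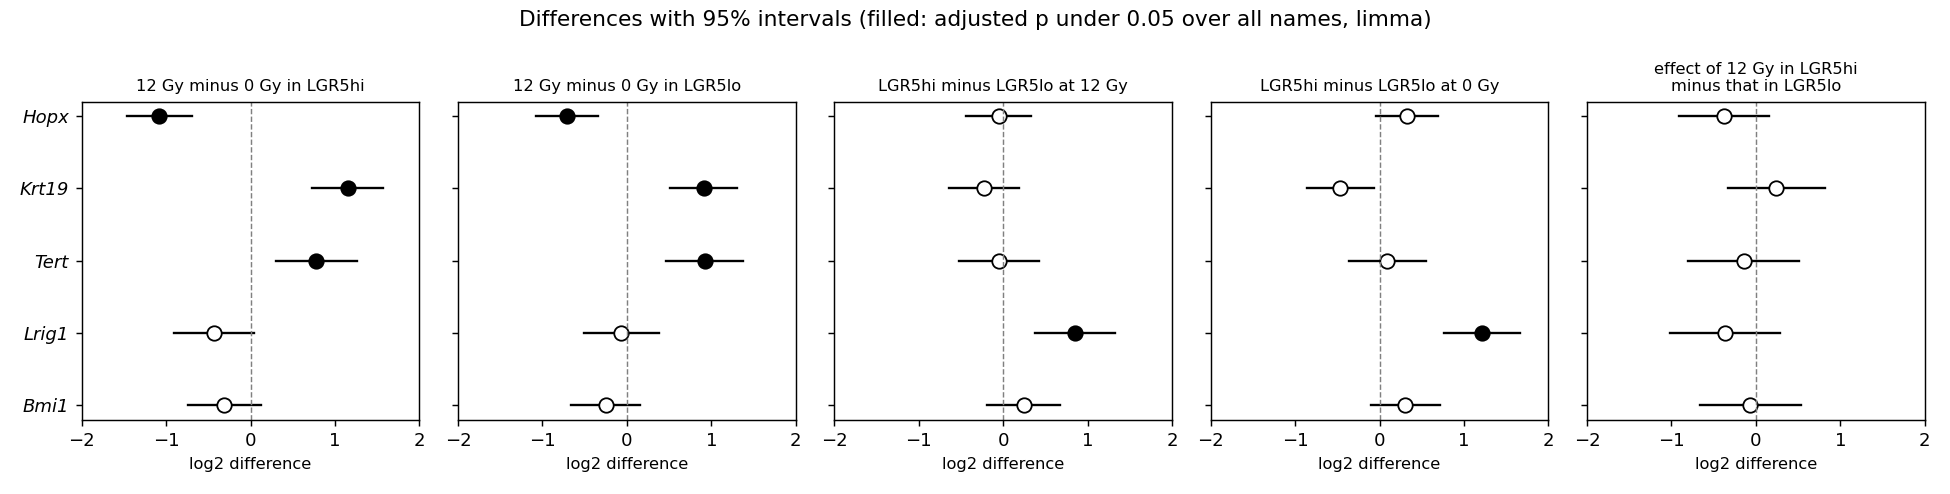
Log2 differences (horizontal axis) of the 5 genes in the 4 comparisons and in the difference between both irradiation effects; points are limma estimates, lines are 95% intervals, and filled points passed the test over all names. Hopx, Krt19 and Tert are filled for irradiation in both sorts, Lrig1 for the sort at both doses, and no gene for the difference of effects.

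Whether irradiation acted differently on the genes in LGR5hi and LGR5lo cells was tested directly. No gene of the 5 passed in limma, none had an unadjusted p under 0.05, and among all names 0.036% were called higher and 0.0036% lower (10 and 1 names, and 10 and 3 with quantile normalization). With the array number as a block within dose, 19 names were called, none of them a gene of the 5. The effect in LGR5hi minus that in LGR5lo cells was -0.37 for Hopx (95% interval -0.91 to 0.16) and -0.37 for Lrig1 (-1.02 to 0.28). It was 0.24 for Krt19 (-0.34 to 0.82), -0.14 for Tert (-0.80 to 0.52) and -0.06 for Bmi1 (-0.66 to 0.53). All 5 intervals contain 0 and are wide beside the irradiation differences, so unequal effects in the sorts are not shown and equal ones are not shown either.

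**Figure D4:**
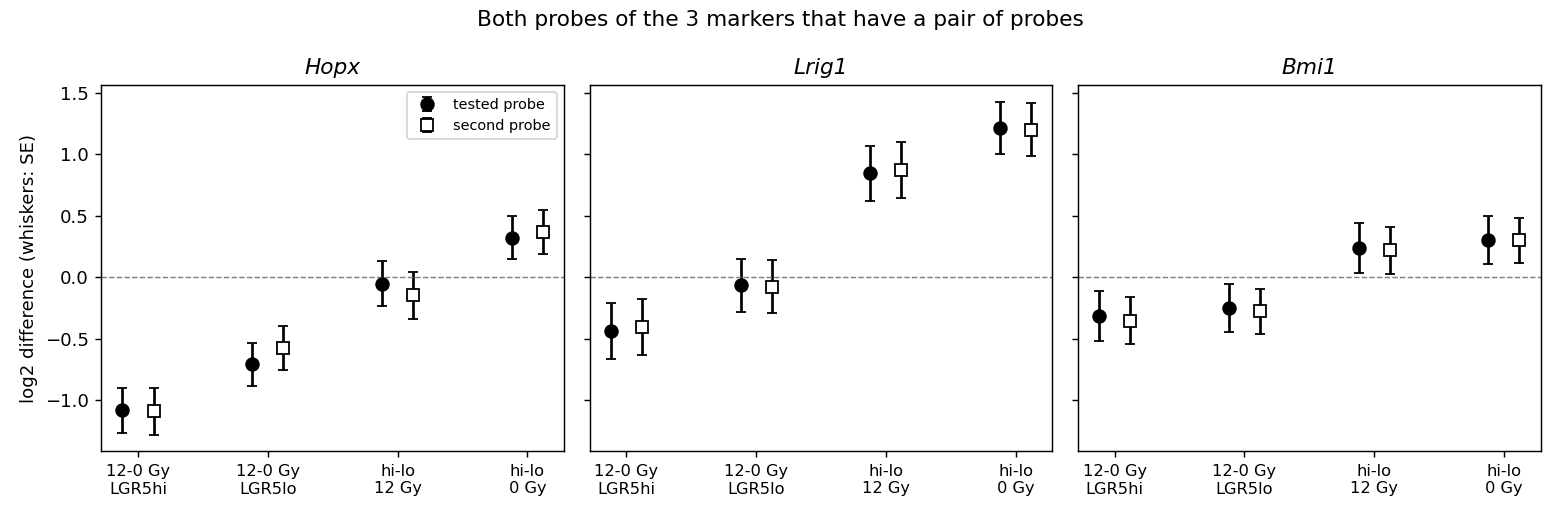
Log2 differences (vertical axis; whiskers are 1 SE) for the tested and the second probe of Hopx, Lrig1 and Bmi1 in the 4 comparisons. The probes of a gene lie within 1 SE of each other in each comparison; the Hopx probes differ most for irradiation in LGR5lo cells, -0.71 against -0.58.

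The partners of each gene were taken from lists that were written with earlier results of these data known, and their medians are read beside those of all names: -0.02 and -0.13 for irradiation in LGR5hi and LGR5lo cells, and 0.05 and -0.08 between the sorts at 12 and 0 Gy. Of 15 other Polycomb repressive complex 1 subunits, 1 rose and 3 fell after 12 Gy in LGR5hi cells (median -0.13), and in LGR5lo cells 1 fell and none was called higher in limma (1 at an unadjusted p under 0.05, median 0.04). Phc1, a Polyhomeotic subunit, fell by 1.25 ± 0.20 (SE, limma adjusted p = 0.00047) in LGR5hi and by 0.74 ± 0.19 (0.027) in LGR5lo cells, where it was the subunit called. Pcgf2, the RING finger subunit most closely related to Bmi1, fell by 0.84 ± 0.17 in LGR5hi cells (adjusted p = 0.0025), and its difference in LGR5lo cells was -0.40 ± 0.16 (0.15). Pcgf3 rose by 0.87 ± 0.19 in LGR5hi cells (0.0048), and its difference in LGR5lo cells was 0.61 ± 0.18 (limma adjusted p = 0.051). Between the sorts 3 of 15 were higher in LGR5hi cells at 12 Gy (median 0.06) and 2 at 0 Gy (0.32). Cbx2 and Cbx6, chromodomain subunits, were higher at both doses, Cbx2 by 0.94 ± 0.18 at 12 Gy and 0.85 ± 0.17 at 0 Gy. Cbx7, another chromodomain subunit, was higher by 1.48 ± 0.27 at 12 Gy (adjusted p = 0.0024), beside 0.75 ± 0.25 at 0 Gy (0.075).

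Of 7 Polycomb repressive complex 2 genes, 3 fell and 1 rose after 12 Gy in LGR5hi cells (median -0.44). Ezh2, its methyltransferase, fell by 0.85 ± 0.20 (adjusted p = 0.0085), Jarid2 by 0.70 ± 0.18 (0.012) and Ezh1 by 0.66 ± 0.19 (0.029). Eed was the gene that rose, by 0.59 ± 0.18 (limma adjusted p = 0.034). In LGR5lo cells none of the 7 was called in limma, with 1 higher and 1 lower at an unadjusted p under 0.05 (median -0.04). The higher was Eed, at 0.56 ± 0.17 (limma adjusted p = 0.055), and the lower was Ezh2, at -0.52 ± 0.19 (0.12). Between the sorts none was called at 12 Gy in limma (1 higher at an unadjusted p under 0.05, median 0.27), and 1, Rbbp7, was higher in LGR5hi cells at 0 Gy, by 0.57 ± 0.17 (adjusted p = 0.042, median 0.47). Of 4 CDK inhibitors set against Bmi1, 1, Cdkn1a, rose after 12 Gy in each sort (list medians 0.30 and 0.06). Between the sorts, 2 of 4 were lower in LGR5hi cells at 12 Gy (median -1.51) and 3 of 4 at 0 Gy (-2.58). Cdkn1c gave -2.61 ± 0.26 at 12 Gy and -3.00 ± 0.25 at 0 Gy, and Cdkn2b -2.73 ± 0.74 and -2.73 ± 0.71. Cdkn1a gave -2.43 ± 0.30 at 0 Gy, beside -0.41 ± 0.31 at 12 Gy, which did not pass. The Cdkn2a probe was well above background on 1 of 4 LGR5hi and 2 of 4 LGR5lo arrays at 12 Gy, and on 1 of 3 and 2 of 5 at 0 Gy, so no fold is given. Its dim values are nevertheless part of the 4 and of the list medians, which they can shift.

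Among 6 factors linked to Hopx, Srf, the serum response factor itself, rose by 0.80 ± 0.24 in LGR5hi cells (limma adjusted p = 0.039). Its difference in LGR5lo cells was 0.74 ± 0.23, which missed the threshold (limma adjusted p = 0.065). None of the 6 was called in LGR5lo cells in limma, and Srf was the 1 at an unadjusted p under 0.05. The list medians were -0.33 and 0.01. Smad5 and Smad4, transducers of BMP signals, were higher in LGR5hi than in LGR5lo cells at 0 Gy, by 0.80 ± 0.17 and 0.60 ± 0.16 (adjusted p = 0.0074 and 0.030; list median 0.31). At 12 Gy none of the 6 was called between the sorts in limma (1 higher at an unadjusted p under 0.05, median 0.21). Of 12 telomerase and shelterin genes, none was called higher with Tert after 12 Gy in limma; at an unadjusted p under 0.05 the count was 1 in LGR5hi and 3 in LGR5lo cells (list medians 0.02 and 0.23). Terf1 and Terf2, which bind telomeric repeats, fell in LGR5hi cells by 0.89 ± 0.14 and 0.72 ± 0.14 (adjusted p = 0.00044 and 0.0020), and neither was called in LGR5lo cells (-0.42 ± 0.13 and -0.20 ± 0.13). At 0 Gy Terf1, Terf2 and Gar1, a protein of the telomerase particle, were higher in LGR5hi than in LGR5lo cells by 0.51 ± 0.13, 0.49 ± 0.13 and 0.52 ± 0.15 (list median 0.40). At 12 Gy none of the 12 was called between the sorts in limma (2 higher at an unadjusted p under 0.05, median 0.08).

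Of the other LRIG and ERBB genes, 5 of 6 were measured. After 12 Gy 1 rose and 2 fell in LGR5hi cells (median 0.28), and 1 rose and 1 fell in LGR5lo cells (-0.09). None was called between the sorts in limma (1 higher at an unadjusted p under 0.05 at each dose, medians 0.16 and 0.31 at 12 and 0 Gy). Egfr rose after 12 Gy by 1.42 ± 0.24 in LGR5hi (limma adjusted p = 0.00073) and 1.37 ± 0.23 in LGR5lo cells (0.0014), and Erbb3 fell by 1.09 ± 0.30 (0.023) and 1.12 ± 0.29 (0.025). Erbb2 fell by 0.85 ± 0.19 in LGR5hi cells. Lrig2 and Lrig3 were not called in any comparison. LGR5hi minus LGR5lo at 0 Gy was -0.07 ± 0.24 for Lrig2 and 1.25 ± 0.73 for Lrig3, beside the 1.21 of Lrig1. At 0 Gy Lrig3 ranged from -1.62 to 3.255 in LGR5lo arrays (SD 2.04), against 3.08 to 3.46 in LGR5hi arrays. The groups thus overlapped for Lrig3, unlike for Lrig1. Of 5 other keratins of simple epithelia, 3 rose with Krt19 in LGR5hi cells: Krt8 by 1.17 ± 0.18, Krt18, its usual partner in filaments, by 1.21 ± 0.21, and Krt7 by 0.82 ± 0.18 (adjusted p = 0.00038, 0.00094 and 0.0050). In LGR5lo cells 1 of 5, Krt18, was called, at 0.73 ± 0.20 (0.037), and 3 of 5 were higher at an unadjusted p under 0.05, among them Krt7 at 0.51 ± 0.17 and Krt8 at 0.49 ± 0.17 (adjusted p = 0.084 and 0.11). The list medians were 0.82 in LGR5hi and 0.49 in LGR5lo cells. Between the sorts 1 keratin of 5 was called, lower in LGR5hi cells, at each dose (medians 0.16 and -0.43 at 12 and 0 Gy). Krt20, a keratin of differentiated villus cells, was lower in LGR5hi than in LGR5lo cells, with differences of -2.10 ± 0.60 at 12 Gy and -2.12 ± 0.57 at 0 Gy.

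Of 8 other genes described as marking reserve or slow-cycling crypt cells, 3 were higher and 4 lower in LGR5hi than in LGR5lo cells at each dose, so they did not follow one pattern (medians -0.72 at 12 Gy and -1.20 at 0 Gy). Some of the 4 lower genes are also counted on other lists: Cdkn1c among the CDK inhibitors, Chga among the enteroendocrine markers and another among the tuft markers. After 12 Gy 1 rose in LGR5hi cells (median 0.04), and 1 rose and 1 fell in LGR5lo cells (-0.10). Clu, a secreted chaperone that marks revival cells, was higher in LGR5hi cells by 2.46 ± 0.24 at 12 Gy and 2.29 ± 0.23 at 0 Gy, and it rose after irradiation by 1.39 ± 0.24 in LGR5hi and 1.21 ± 0.23 in LGR5lo cells. Chga, an enteroendocrine granule protein, was lower in LGR5hi cells, with differences of -4.78 ± 0.35 at 12 Gy and -4.02 ± 0.33 at 0 Gy. Mex3a, an RNA-binding protein of slow-cycling LGR5-positive cells, fell by 1.11 ± 0.20 after 12 Gy in LGR5lo cells (adjusted p = 0.0028). Its difference in LGR5hi cells was -0.43 ± 0.21 and was not called (limma adjusted p = 0.25).

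**Figure D5:**
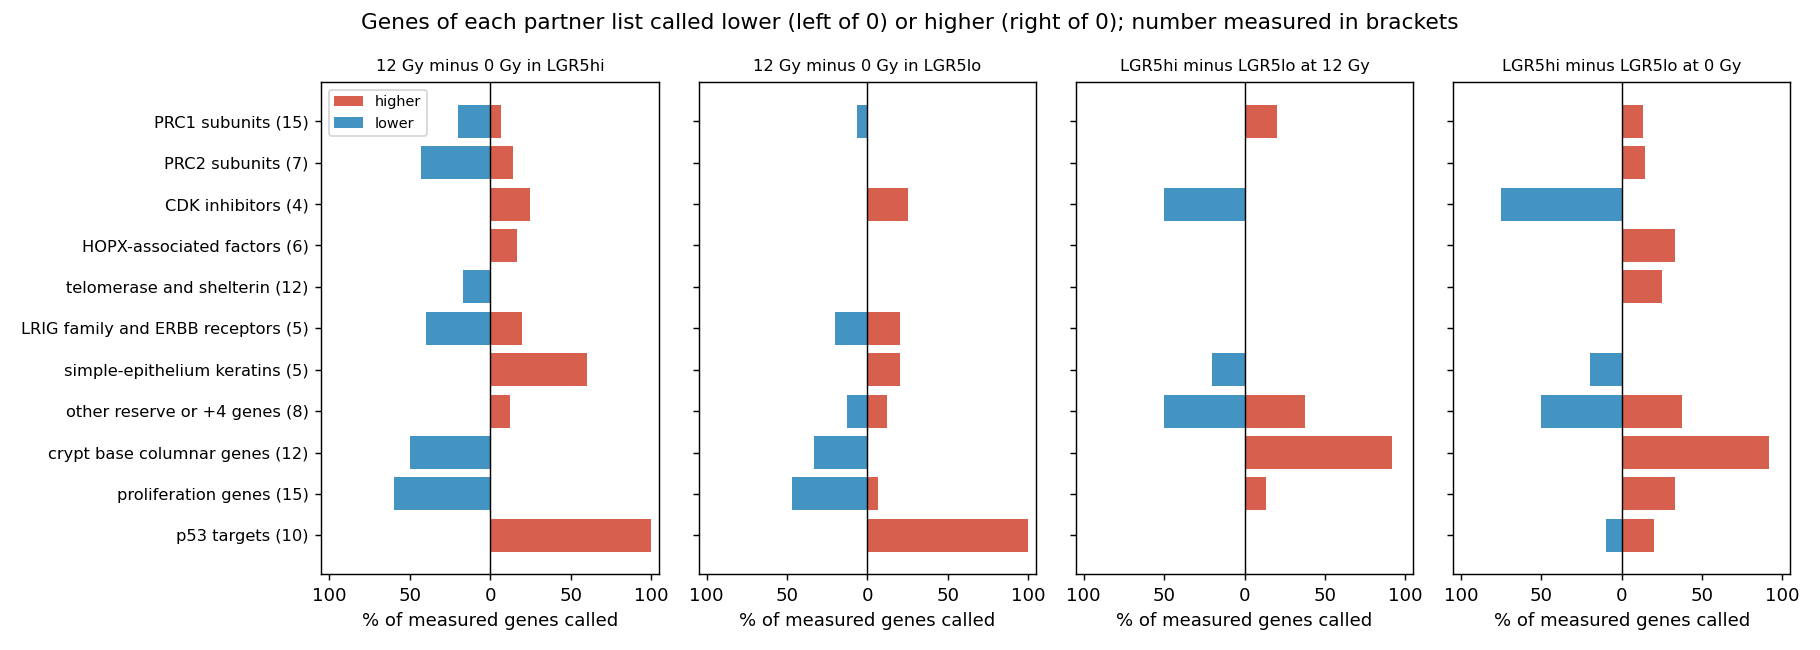
Percent of the measured genes of each partner list called higher (red, right of 0) or lower (blue, left of 0) in the 4 comparisons, with the number measured in brackets. In LGR5hi cells after 12 Gy, 3 of 5 simple-epithelium keratins are called higher and none lower, and 9 of 15 proliferation genes are called lower.

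Lists that moved with the 5 genes are given for the comparisons they touch, and their part in the results was not tested. Beside the fall of Hopx, 6 of 12 crypt base columnar genes fell in LGR5hi and 4 of 12 in LGR5lo cells, and 9 of 15 and 7 of 15 proliferation genes fell, with 1 of 15 called higher in LGR5lo cells. The medians in LGR5hi and LGR5lo cells were -0.97 and -0.76 for the crypt base list and -1.28 and -0.61 for the proliferation list. Beside the rises of Krt19 and Tert, all 10 listed p53 targets rose in both sorts (medians 3.54 and 3.03). Beside Lrig1, 11 of 12 crypt base columnar genes were higher in LGR5hi than in LGR5lo cells at each dose (medians 1.43 and 1.65 at 12 and 0 Gy), as were 2 of 15 proliferation genes at 12 Gy and 5 of 15 at 0 Gy. Of the p53 targets, 2 were higher and 1 lower in LGR5hi cells at 0 Gy. Other lineages moved the opposite way: 8 of 8 enteroendocrine and 5 of 6 measured goblet markers were lower in LGR5hi than in LGR5lo cells at each dose, and tuft markers were lower for 5 of 8 at 12 Gy and 8 of 8 at 0 Gy. The medians at 12 and 0 Gy were -4.22 and -3.84 for enteroendocrine, -2.64 and -2.37 for goblet and -1.64 and -1.92 for tuft markers. The summed enteroendocrine signal, as log2 of the sum over the list, ranged from 4.82 to 5.28 in LGR5hi and 9.08 to 9.74 in LGR5lo arrays at 12 Gy, and from 4.37 to 5.49 and 8.50 to 8.97 at 0 Gy.

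The summed goblet signal ranged from 9.39 to 9.54 in LGR5hi and 11.3 to 11.8 in LGR5lo arrays at 12 Gy, and from 9.21 to 9.77 and 10.7 to 12.0 at 0 Gy. The summed tuft signal ranged from 2.78 to 3.39 and 3.78 to 4.62 at 12 Gy, and from 1.59 to 2.90 and 3.99 to 4.88 at 0 Gy. Of 5 measured stromal and endothelial markers 1 (Vim) was lower in LGR5hi cells at each dose, and Col1a1, Pdgfra and Cdh5 did not pass the filter on dim probes. At 12 Gy the summed signal of the 5 measured markers ranged from -0.10 to 0.01 in LGR5hi and 2.70 to 3.30 in LGR5lo arrays. At 0 Gy it ranged from -0.38 to -0.13 and 1.78 to 2.20. The sum was thus higher at 12 Gy than at 0 Gy in both sorts without overlap, but a sum follows its brightest genes. The list medians were 0.11 and -0.47 for irradiation in LGR5hi and LGR5lo cells, and 0.20 and -0.71 between the sorts at 12 and 0 Gy. By its median the list did not rise after 12 Gy in LGR5lo cells and was not lower in LGR5hi cells at 12 Gy. Vim, an intermediate filament protein of mesenchymal cells, rose by 1.27 ± 0.21 after 12 Gy in LGR5lo cells (limma, adjusted p = 0.0013), and its difference in LGR5hi cells was 0.65 ± 0.22 (0.065). Of 8 leukocyte markers none was called between the sorts at 12 Gy, also at an unadjusted p under 0.05, and 3 (Cd52, Cd79b and Coro1a) were lower in LGR5hi cells at 0 Gy. No Paneth or enterocyte marker was called in any of the 4 comparisons by limma; at an unadjusted p under 0.05, 2 of 5 Paneth and 2 of 9 enterocyte markers were lower in LGR5hi cells at 12 Gy, and 2 Paneth markers were higher after 12 Gy in LGR5lo cells.

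Markers of other lineages also moved with dose, beside Hopx, Krt19 and Tert. Of 8 enteroendocrine markers, 2 rose after 12 Gy in each sort: Tac1, a tachykinin precursor, by 1.62 ± 0.27 in LGR5hi and 1.62 ± 0.25 in LGR5lo cells, and Tph1, which makes serotonin's precursor, by 1.24 ± 0.31 and 2.10 ± 0.29. Of 8 leukocyte markers, Cd79b rose in LGR5hi cells (1.41 ± 0.26) and in LGR5lo cells (0.87 ± 0.24). In LGR5lo cells Cd8a fell by 1.45 ± 0.32 and Coro1a fell by 1.34 ± 0.33, and 4 of 8 leukocyte markers were lower at an unadjusted p under 0.05. The summed leukocyte signal ranged from 2.94 to 3.85 at 12 Gy and 2.69 to 3.09 at 0 Gy in LGR5hi arrays, and from 3.29 to 3.8 and 2.93 to 3.76 in LGR5lo arrays, and overlapped between doses in both sorts. Of 8 tuft markers 1, Alox5, rose in LGR5hi cells (2.06 ± 0.29), and none was called in LGR5lo cells in limma (1 lower at an unadjusted p under 0.05). No goblet marker was called after 12 Gy in either sort in limma, also at an unadjusted p under 0.05. Of 10 epithelial markers, 2 (Krt8 and Krt18) rose and 1 (Hnf4a, -0.56 ± 0.14) fell in LGR5hi cells, and 1 (Krt18) rose in LGR5lo cells.

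The names whose signal followed each gene most closely were found by Pearson's r over the 16 arrays other than LGR5lo 0 Gy replicate 2. Only the 17935 tested names in the RefSeq gene table were ranked, passing over names of clones, contigs and the like. These arrays share doses, sorts and slides, and r is given as a description. Krt19 was most like Krt10 (r = 0.98, and 0.95 over 17 arrays), Krt42 (0.98), Ddn (0.97) and Mboat1 (0.97); Krt10 and Krt42 are type I keratins like Krt19. Hopx was most like Ago1, Arl6ip1, Slc16a10 and Cnpy4, each at r = 0.97. Lrig1 was most like Slc1a2, Fbln1, Hunk and Esr1, from 0.97 to 0.95, with Esr1 at 0.81 over 17 arrays.

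Tert was most like S100a3, Eda2r, Cyp27a1 and Sncg, from 0.90 to 0.88, with Eda2r at 0.68 over 17 arrays. Bmi1 was most like Gtf3a, Aff1, Ccni and Ccdc90b, from 0.93 to 0.90. Among the 5 genes themselves, Hopx and Krt19 ran opposite to each other (r = -0.87), as did Hopx and Tert (-0.74), while Lrig1 and Tert were the pair nearest to 0 (-0.28).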

How the data were processed

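RNA of sorted cells was labelled with Cy3 and hybridised to one-colour Agilent mouse arrays, per the labels' protocols. The authors deposited scanner files with a processed intensity per spot, made with Agilent Feature Extraction 10.7.3.1, per the submitters' processing notes; it is background-corrected, per the file headers. They also deposited a table of normalized log2 values, whose processing is not given in the sources used here; its differences between arrays matched log2 intensity minus the array's 75th percentile within 0.02 for at least 99.6% of probes on whole arrays. It supplied the partly unreadable array, after each probe's baseline, the median offset on the other arrays, was added back. All 13422 readable probes then matched within 0.02, once a constant for the array, fitted to the same probes, was taken off.

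Outlier-flagged spots were left out, spots of a probe were averaged, and log2 intensity minus the 75th percentile over 55681 non-control probes was taken. Probes well above background on at least 4 arrays were kept (41444), and the brightest kept probe stood for each of 27771 names. A limma 3.58.1 model (R 4.3.3) of the 4 groups was fitted over all names on all 17 arrays, with Benjamini-Hochberg adjustment and a threshold of 0.05, and was tested on simulated data. Array intensities carry no counts, so the number of arrays limits the precision. Gene names of 27229 probes were matched by accession to the RefSeq table, and 2837 were updated. Probe coordinates are those of the files (mm9); promoters are of GRCm38.p6, and none is converted. Probe positions within transcripts were not analysed here.

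The 5 genes, the lists and the tests were chosen with earlier results of these data known. All probes of the 5 genes are named. Of the lists, counts called are given, with up to 3 called genes of smallest p. Lgr5, Cdkn1a, Cdkn2a, Lrig2, Lrig3 and Pcgf2 are given in addition. Eed, and Krt7, Krt8, Vim, Srf, Pcgf3, Ezh2 and Mex3a where not called, were named after their values were seen. Alternatives were other normalizations, filters, probe rules, the deposited table, sex, slide and number as blocks, single slides, only the groups compared, and leaving out each array.

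Same-numbered LGR5hi and LGR5lo arrays of a dose share sex and slide in the labels and headers. Their deviations from group means correlated at 0.12 to 0.46 in all 8 pairs, so the number was taken to pair them. The labels do not state such a pairing, and arrays of different numbers were not compared in this way. Same-numbered 12 Gy and 0 Gy arrays differ in sex and correlated at -0.10 to 0.22, a range that overlaps the first.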

Additional observations from a re-analysis of the deposited data

Results flagged for a closer look

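Within groups of 4 or 5 arrays, the highest and lowest value of each of the 8 probes was set against the group's range by Dixon's test at the 95% level. This made 32 tests, of which 3 found an array far from the others; about 1 in 20 is the rate chance gives.

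On the second Hopx probe, LGR5lo 0 Gy replicate 4 read 2.74, against 3.55 to 3.75 on the other 4 arrays of its group (ratio of gap to range 0.80, critical value 0.71). At the tested Hopx probe the same array read 3.92, inside its group's range of 3.31 to 4.20.

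The Krt19 probe read 8.15 on LGR5lo 12 Gy replicate 2, against 8.53 to 8.57 on the other 3 arrays (ratio 0.91, critical value 0.83). The second Bmi1 probe read -0.095 on LGR5hi 12 Gy replicate 2, against -0.56 to -0.50 on the other 3 (ratio 0.87, critical value 0.83). The cause of these values was not tested.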

How the results depend on the processing

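No called difference of the 5 genes changed direction under any alternative; signs turned in 24 cases, all of them values that had not passed. On slide 1 alone (2 arrays a group) no gene was called in any comparison: Hopx was -0.97 in LGR5hi and -0.50 in LGR5lo cells, Krt19 1.10 and 0.95, Tert 0.65 and 1.18, and Lrig1 (LGR5hi minus LGR5lo) 0.88 at 12 Gy and 1.35 at 0 Gy. On slide 2 alone Hopx and Krt19 were still called in LGR5hi cells, while Tert there (0.91), Hopx, Krt19 and Tert in LGR5lo cells (-0.87, 0.86 and 1.03; 0 genes called) and Lrig1 (0.81 and 1.02; 0 genes called at either dose) were not; these fits hold fewer arrays. With only the groups compared, 0 genes were called in LGR5lo cells (Hopx -0.71, Tert 0.92, Krt19 0.91). Tert lost its call with quantile normalization (0.72 in LGR5hi and 1.31 in LGR5lo cells), with normexp on 16 arrays (0.62 and 0.64) and, in LGR5hi cells, with median centring (0.73). Hopx in LGR5lo cells lost it with median centring (-0.46) and with its dimmer probe (-0.58). Lrig1 at 12 Gy lost it, leaving 0 genes called, with median centring (0.79), normexp (0.81) and no filter on dim probes (0.84). Quantile normalization added Krt19 (-0.77) between the sorts at 0 Gy, for 2 genes called. The cause was not tested where the number of arrays does not show it.

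With 1 array left out in turn, Tert ranged from 0.65 to 0.87 in LGR5hi and 0.82 to 1.11 in LGR5lo cells, Hopx from -0.84 to -0.62 in LGR5lo cells and Lrig1 at 12 Gy from 0.75 to 0.97. The genes called then ranged from 1 to 3 in LGR5lo cells, 0 to 1 between the sorts at 12 Gy and 1 to 2 at 0 Gy. With a replicate block within dose Lrig1 was 0.84 at 12 Gy (limma adjusted p = 0.016) and 1.19 at 0 Gy (0.0037), and the replicate block over all arrays gave Hopx -1.08 in LGR5hi and -0.68 in LGR5lo cells; neither changed a call of the 5 genes. Over all names, 3743 were called for irradiation in LGR5hi and 2081 in LGR5lo cells, 1753 between the sorts at 12 Gy, 2651 at 0 Gy and 11 for the difference of effects. Leaving out 1 array gave 2842 to 5191, 1181 to 2539, 1062 to 2869, 1446 to 4234 and 0 to 26. One slide gave 266 to 1573, 42 to 459, 118 to 319, at most 246, and 0. The other alternatives gave 2309 to 4802, 788 to 2489, 1061 to 3114, 986 to 4192 and 2 to 55.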
